A study of Macaca mulatta with 304 samples.

Results

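The genes described here are 10 genes of the response to low oxygen and of the switch to glycolysis, HIF1A, VEGFA, ADM, SLC2A1, SLC2A3, PFKFB3, PFKFB4, LDHA, PDK1 and BNIP3. They were chosen by symbol from the 21070 genes of the deposited count table, and all 10 were among the 13751 genes with enough counts to be tested. Whole blood of 28 adult rhesus macaques of the Chinese sub-strain (14 females, 14 males) was sequenced. The animals were irradiated with photons on the upper thorax, 12 with 9.8 Gy (lower dose, LD) and 16 with 10.7 Gy (higher dose, HD). The control samples were 24 draws taken 2 days before irradiation from the same animals (Day −2), so each animal served as its own control, and no sham-irradiated animals were analysed here. The other samples came from 15 scheduled days between Day 3 and Day 270, and from 8 unscheduled last draws of animals euthanised for illness. All animals received an opioid (tramadol or buprenorphine) during the first weeks, and those with fast breathing received dexamethasone. The labels do not say which animals received dexamethasone. Later days hold only survivors: after Day 90 there were 53 samples of 16 animals (12 LD, 4 HD), and 6 animals reached Day 270.

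HIF1A is the oxygen-sensitive subunit of hypoxia-inducible factor 1. When oxygen is plentiful, prolyl hydroxylases mark the protein for destruction, and when oxygen is short it is stabilised, pairs with ARNT and raises transcription at sites with the core ACGTG or GCGTG. The control acts mainly on the protein, so the HIF1A transcript need not follow it. Among the other 9 genes, VEGFA encodes a growth factor for blood vessels and ADM a peptide that widens them. SLC2A1 and SLC2A3 encode the glucose transporters GLUT1, abundant in red cell precursors, and GLUT3. PFKFB3 and PFKFB4 make or remove fructose 2,6-bisphosphate, the activator of phosphofructokinase. LDHA turns pyruvate into lactate, PDK1 blocks entry of pyruvate into mitochondria, and BNIP3 marks mitochondria for removal. Neutrophils live largely on glycolysis, and whole blood is a mixture in which more cells of a type and more RNA per cell cannot be told apart.

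The genes lie on the Mmul_10 build as annotated by RefSeq: HIF1A at chr7:123769012-123822866 (plus strand), VEGFA at chr4:125542856-125559420 (minus strand), ADM at chr14:55374474-55376882 (minus strand), SLC2A1 at chr1:181595187-181628394 (plus strand), SLC2A3 at chr11:11576181-11592299 (plus strand). The others are PFKFB3 at chr9:7326000-7416148 (plus strand), PFKFB4 at chr2:104576380-104619464 (minus strand), LDHA at chr14:47176916-47189970 (minus strand), PDK1 at chr12:59657384-59766373 (plus strand) and BNIP3 at chr9:132432366-132447269 (minus strand).

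The HIF core was searched in the 250 bases before the outermost annotated start of members, as ACGTG or GCGTG on both strands, so that a CACGTG counts as 2 overlapping matches. BNIP3 held 6 matches, HIF1A 5, LDHA 3, and ADM and PFKFB4 1 each, and 46% of 20787 protein-coding promoters of the same length held the core. No match was found in the windows of VEGFA, SLC2A1 and PDK1, which says only that these letters are not there. The start used in blood was not measured, and a match is no evidence of binding. The windows of HIF1A, LDHA, PFKFB4 and VEGFA, members that rose between Day 30 and the draws after Day 90, and of BNIP3, which has most matches, are given 5′ to 3′ on the strand of the gene, with matches on either strand in capitals. They are chr7:123768762-123769011 for HIF1A, chr14:47189971-47190220 for LDHA, chr2:104619465-104619714 for PFKFB4, chr4:125559421-125559670 for VEGFA and chr9:132447270-132447519 for BNIP3.
HIF1A: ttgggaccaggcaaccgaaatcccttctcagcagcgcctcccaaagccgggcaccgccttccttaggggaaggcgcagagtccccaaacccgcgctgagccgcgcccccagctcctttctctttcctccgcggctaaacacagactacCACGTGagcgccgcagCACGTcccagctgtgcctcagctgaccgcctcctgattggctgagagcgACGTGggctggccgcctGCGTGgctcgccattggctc
LDHA: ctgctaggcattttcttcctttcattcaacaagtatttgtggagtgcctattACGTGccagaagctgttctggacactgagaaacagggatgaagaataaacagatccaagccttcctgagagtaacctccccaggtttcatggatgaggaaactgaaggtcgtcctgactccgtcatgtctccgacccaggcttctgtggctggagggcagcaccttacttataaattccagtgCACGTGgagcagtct
PFKFB4: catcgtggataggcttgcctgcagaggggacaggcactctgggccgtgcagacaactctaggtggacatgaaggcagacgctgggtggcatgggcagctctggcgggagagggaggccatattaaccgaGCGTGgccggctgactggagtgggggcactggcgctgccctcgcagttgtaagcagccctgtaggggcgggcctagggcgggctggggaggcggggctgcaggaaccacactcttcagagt
VEGFA: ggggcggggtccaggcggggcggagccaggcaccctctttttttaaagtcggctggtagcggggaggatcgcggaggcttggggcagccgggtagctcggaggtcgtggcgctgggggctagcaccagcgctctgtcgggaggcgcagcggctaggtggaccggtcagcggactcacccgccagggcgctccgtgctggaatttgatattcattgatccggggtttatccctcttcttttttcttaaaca
BNIP3: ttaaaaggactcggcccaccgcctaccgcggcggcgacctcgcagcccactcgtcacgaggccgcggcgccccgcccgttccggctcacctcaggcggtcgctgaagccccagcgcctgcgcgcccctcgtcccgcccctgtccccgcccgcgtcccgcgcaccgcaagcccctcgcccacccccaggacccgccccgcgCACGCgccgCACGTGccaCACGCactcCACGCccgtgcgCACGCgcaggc

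The members span a wide range of levels in blood. Per kilobase of exon, the median CPM (counts brought to a common library size by upper quartile scaling over all samples) was 90.3 for LDHA, 77.4 for SLC2A3, 31.1 for PFKFB3, 28.4 for HIF1A and 16.2 for PFKFB4. It was 11.4 for PDK1, 7.36 for SLC2A1, 3.26 for BNIP3, 2.07 for VEGFA and 0.479 for ADM. The high end is thus held by lactate dehydrogenase and GLUT3, and the low end by the secreted signals. ADM had 0 to 63 counts per sample and was at 0 in 12 samples. In those 12 samples 3 counts, the limit that a count of 0 allows, were worth 0.358 to 1.06 CPM, so single values of ADM are imprecise. Every other member had at least 9 counts in every sample.

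Between 2840219 and 23638161 reads of a sample were counted on genes, with a median of 8227563. The labels carry a library number, whose meaning they do not give, and it splits the samples into 120 of series A (the lower range of numbers), 34 of series B (the higher range) and 150 of series C (number 0). Median depth was 12313370 reads in A, 7104570 in B and 6904804 in C. Of the controls 20 were in A and 4 in C, and all Day 30 samples were in C, so that later days against control and the library series were told apart only in part, through 4 animals with controls in C and through fits with the series as a term. Markers of blood cells (HBB, PTPRC, S100A8, CD3E, CD79A, ALAS2) were above 0 in every sample. One library stood apart: the Day 40 sample of HD animal B2007, its last draw, had a summed erythroid marker level of 330890 CPM against 1960 to 24384 in the other 23 samples of that day. It also held the highest BNIP3 level of the series, 21.7 CPM from 73 counts, against 5.51 CPM in the same animal at Day 30.

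**Figure D1:**
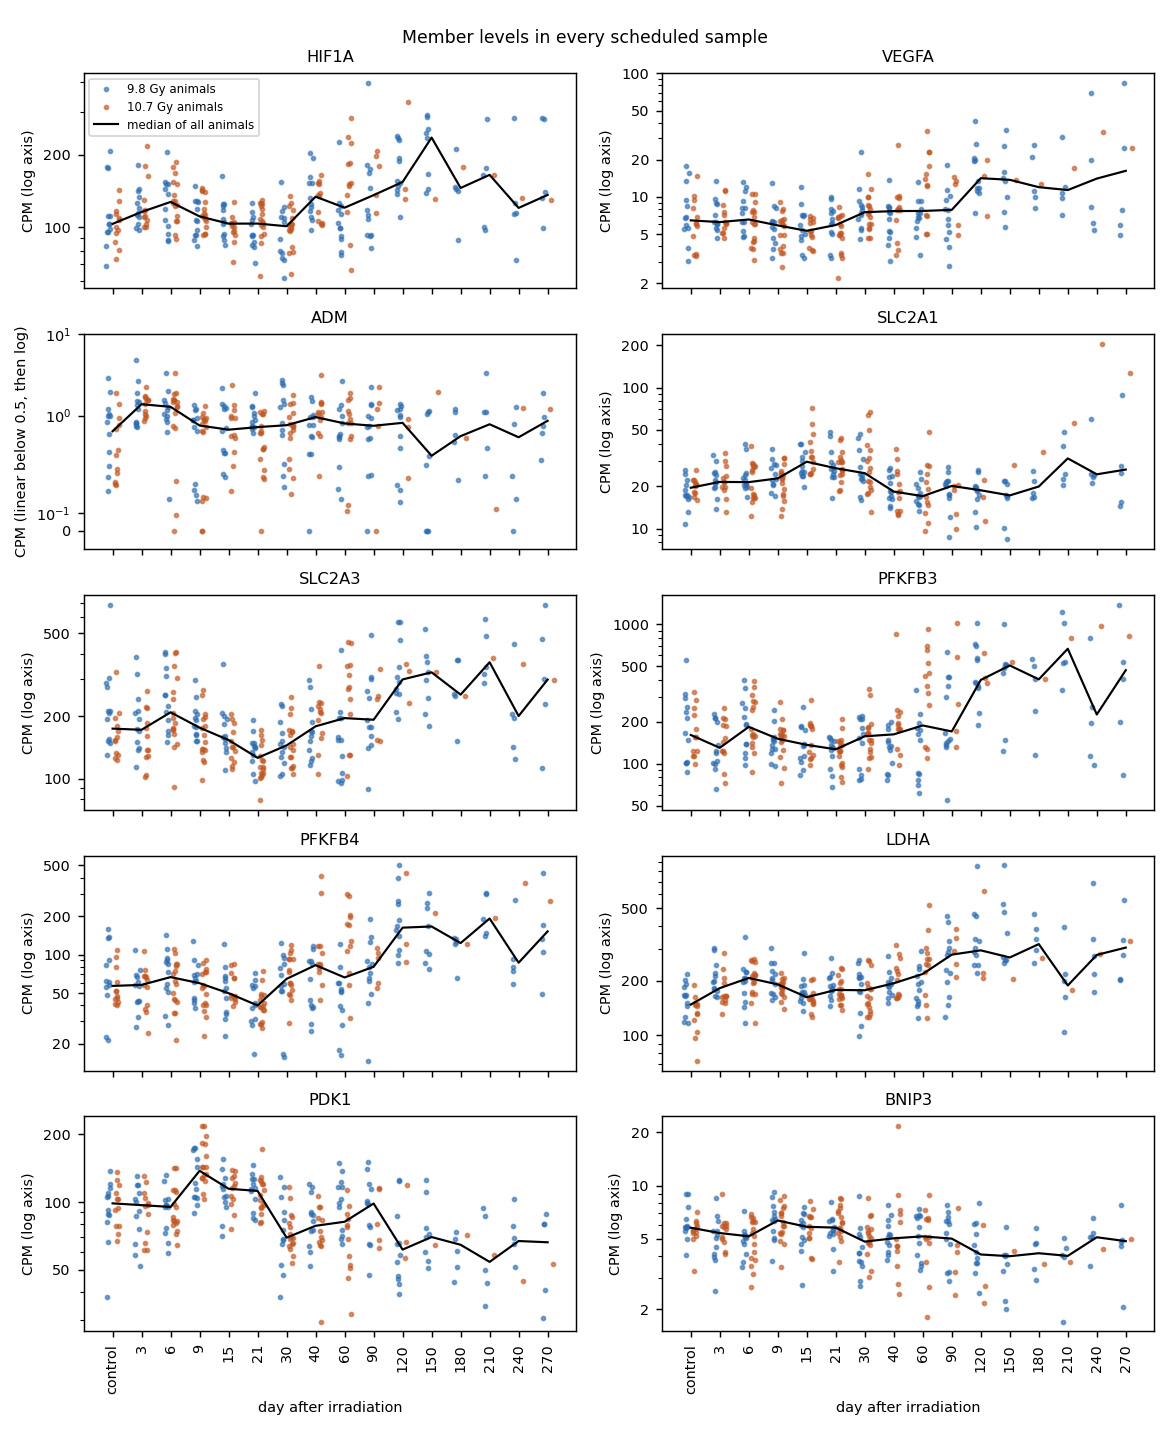
CPM of each member (vertical axis, logarithmic except near 0 for ADM) in every scheduled sample, by day after irradiation (horizontal axis, evenly spaced); blue points are LD animals, orange points HD animals, and the black line is the median of all animals. The medians of PFKFB3, PFKFB4, SLC2A3 and LDHA step up at Day 120, where that of PFKFB4 is 162 CPM against 56.8 in controls, while the median of ADM is highest at Day 3, at 1.38 CPM.

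Each day was compared with the same animals' controls to ask when the members left their starting levels. A gene was called when its Benjamini-Hochberg adjusted p (edgeR quasi-likelihood test, over all 13751 genes) was at most 0.05 and its change at least 1.5-fold. Over the 15 days 28 of 150 tests of a member were called. Of all tested genes, between 0.00727% (Day 270) and 31.8% (Day 120) were called on a day. In the first 21 days 1 member passed on each sampled day. From Day 30 to Day 60 none did, although fits that hold the library series constant called up to 3 on these days. From Day 120 to Day 210 between 4 and 6 members were called higher on each day. On those later days 18.7% to 31.8% of all tested genes were called in either direction.

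ADM, the vessel-widening peptide, was the only member called on Days 3 and 6, on which 11.5% and 11.5% of all tested genes were called. Its lowest, median and highest levels were 0.218, 0.644 and 2.88 CPM in the 24 controls and 0.725, 1.38 and 4.80 CPM at Day 3. The ranges overlapped, but 20 of 24 animals were higher than their own control. The change was 0.94 ± 0.21 on the log2 scale (SE, adjusted p = 0.00037) at Day 3 and 0.73 ± 0.24 (adjusted p = 0.0156, 18 of 24 animals) at Day 6. The call of Day 6 was lost without the animal as a block (0.65, adjusted p = 0.057) and in limma on the deposited log2 values (0.52, adjusted p = 0.0553). Platelet markers summed to a median of 1576 CPM in controls and 4070 CPM at Day 3, and monocyte markers to 1580 and 2420 CPM. Their part in the ADM result was not tested.

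PDK1, the kinase that holds pyruvate out of mitochondria, was the only member called at Day 9, when 7.58% of genes were. It ran from 38.03 through a median of 98.7 to 137.6 CPM in controls and from 89.3 through 137.7 to 218 CPM at Day 9. Nearly all animals moved, 23 of 24 being higher than their control (0.59 ± 0.08, adjusted p = 2.9e-06), though the change lies close to the 1.5-fold limit and was under it with limma (0.58) and without a filter on low counts (0.58). At Day 15, with 6.01% of genes called, the call was SLC2A1, the transporter of red cell precursors. Its levels were 10.8, 19.5 and 26.2 CPM (lowest, median, highest) in controls and 19.8, 29.8 and 71.9 CPM at Day 15. All 24 animals were higher (0.73 ± 0.08, adjusted p = 4.53e-08), and at Day 21 SLC2A1 still differed by 0.56 (adjusted p = 1.31e-06), short of 1.5-fold. Summed erythroid markers had their highest median of all scheduled days at Day 15, 25268 CPM (9439 to 88582) against 6429 CPM (1757 to 11732) in controls, and their part in the SLC2A1 result was not tested.

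At Day 21, when 10.4% of genes were called, SLC2A3 fell. GLUT3 transcripts ran from 123.5 through 174 to 688 CPM in controls and from 79.01 through 126.03 to 192 CPM at Day 21, and 23 of 24 animals were lower than their control (−0.60 ± 0.08, adjusted p = 7.18e-07). The call was lost when all samples were fitted at once with the series as a term (−0.43, adjusted p = 0.00362). PFKFB3 (−0.52, adjusted p = 0.000318) and PFKFB4 (−0.56, adjusted p = 0.000249) had changes under the 1.5-fold limit that day, and both were called lower in the 16 animals with both samples in 1 series (PFKFB3 −0.60, adjusted p = 0.00299, and PFKFB4 −0.64, adjusted p = 0.00388) and without the animal as a block (−0.64 and −0.66). With the series as a term in a fit of all samples no member was called at Day 21, PFKFB3 changing by −0.39 and PFKFB4 by −0.37. That day all 12 LD samples were in A, and the HD samples were in B (8) or C (8), so dose and series cannot be told apart among them. Neutrophil markers summed to a median of 2190 CPM at Day 21 against 3067 CPM in controls, a movement whose part was not tested. On Days 30, 40 and 60, with 5.9%, 6.92% and 4.23% of genes called, no member was called, and none was with unadjusted p or with DESeq2. SLC2A1 was called at Day 30 without the animal as a block (0.60, adjusted p = 0.001). Leaving out the B2007 library left the count of Day 40 at 0. In the 4 animals whose control and draw were both in series C, all of them HD, LDHA was called at Day 30 (0.82, adjusted p = 0.0275) and at Day 40 (1.07, adjusted p = 0.00939), and PFKFB4 at Day 40 (1.26, adjusted p = 0.0145). These fits called 879 of the 13751 tested genes at Day 30 and 815 at Day 40. With the series as a term in a fit of all samples, LDHA (0.64) and PFKFB4 (0.83) were called at Day 40, and VEGFA (0.73), LDHA (0.68) and PFKFB4 (0.86) at Day 60. That fit called 1394 of all tested genes at Day 40 and 610 at Day 60. Without the term the same fit called no member on Days 40 and 60, so there the absence of calls depended on how the series was treated. The fits of 4 HD animals differ from the main fit also in dose and in the number of animals.

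**Figure D2:**
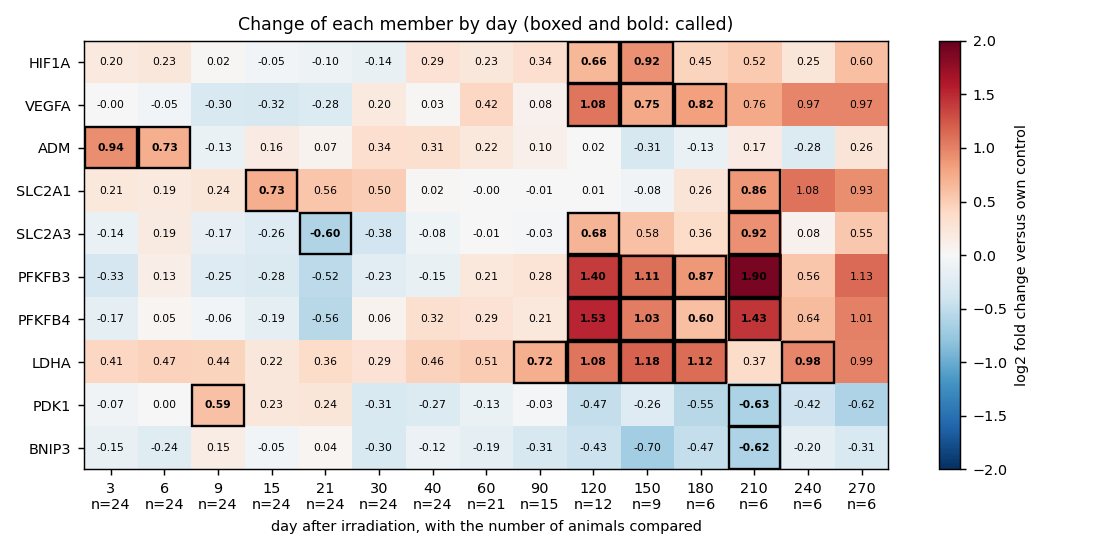
Log2 fold change of each member (rows) against the same animals' controls on each scheduled day (columns, with the number of animals compared), red for higher and blue for lower, with called changes boxed and in bold. Single boxes in the first 21 days are followed by a block of red boxes from Day 120 to Day 210, the highest value being 1.90 for PFKFB3 at Day 210.

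LDHA rose at Day 90 (0.72 ± 0.16, adjusted p = 0.0041, higher in 13 of 15 animals), when 7.06% of genes were called. It was also the only member with a positive change on all 15 days, and it was called on 5 of them. At Day 120, 6 members had risen in 12 animals, against 31.8% of all genes called in either direction. LDHA ran from 72.6 through 148 to 217 CPM in all 24 controls and from 206.2 through 293 to 851 CPM at Day 120. These ranges overlapped only between 206.2 and 217 CPM. The control at 217 CPM was that of B1504, last drawn on Day 102 and so not compared here. Among the 12 animals compared the highest control was 201.53 CPM (B1502). LDHA rose by 1.08 on the log2 scale, in 12 of 12 animals (adjusted p = 0.000107). PFKFB4 went from 21.3, 56.8 and 158 CPM (lowest, median, highest) to 86.5, 162 and 498 CPM, with a change of 1.53 (adjusted p = 0.00241, 10 of 12 animals). Its highest control was also that of B1504. PFKFB3 changed by 1.40 (adjusted p = 0.0017, 11 of 12), VEGFA by 1.08 (adjusted p = 0.00201, 11 of 12), SLC2A3 by 0.68 (adjusted p = 0.0154, 9 of 12) and HIF1A by 0.66 (adjusted p = 0.000566, 12 of 12). Of 19 other glycolytic enzymes and lactate transporters 4 were higher and 5 lower that day, with a median change of −0.13 against −0.15 over all genes. Among the members, SLC2A1 (0.01), ADM (0.02), BNIP3 (−0.43) and PDK1 (−0.47) were not called.

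The later days held fewer animals. At Day 150 (9 animals, 31.5% of genes called) HIF1A (0.92), VEGFA (0.75), LDHA (1.18), PFKFB3 (1.11) and PFKFB4 (1.03) were higher. At Day 180 (6 animals, 18.7%) VEGFA (0.82), LDHA (1.12), PFKFB3 (0.87) and PFKFB4 (0.60) were, and each of these 4 was higher in 6 of 6 animals. The calls of VEGFA at Day 150 and of VEGFA, PFKFB3 and PFKFB4 at Day 180 were lost without the animal as a block, with unchanged direction, and that of PFKFB4 at Day 180 also with a filter of 10 counts (0.58). Other calls were gained at Day 150. SLC2A3 (0.58 in the main fit) was called higher under TMM scaling, DESeq2, limma, without a filter on low counts and without the block. BNIP3 (−0.70) was called lower with DESeq2, with a filter of 10 counts and without the block. Day 210 (6 animals, 29.8%) gave the largest change of any member on any day, PFKFB3 at 1.90 ± 0.20 (adjusted p = 7.79e-05), beside PFKFB4 (1.43), SLC2A3 (0.92) and SLC2A1 (0.86), all higher in 6 of 6 animals. On that day PDK1 (−0.63, lower in 4 of 6) and BNIP3 (−0.62, lower in 6 of 6) fell. Both of these lower calls were lost under TMM scaling, DESeq2, limma, without a filter on low counts and without the block. HIF1A (0.52) and VEGFA (0.76) were not called at Day 210, but were called higher under TMM scaling, DESeq2 and without a filter on low counts. LDHA was the single call at Day 240 (0.98, adjusted p = 0.0498, with 6.76% of genes called), and it was lost under TMM scaling (adjusted p = 0.0526) and limma (0.0554). In 1 fit over all samples 5 members and 3714 genes were called at Day 240, and 6 members and 3556 genes with the series as a term.

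At Day 270, 0.00727% of genes (1 gene) and no member were called in 6 animals. By unadjusted p 7 members and 3540 genes passed, and DESeq2 called 3 members and 2344 genes. When all samples were fitted at once, 8 members and 4976 genes were called at Day 270, and 8 members and 4562 genes with the series as a term, in which PFKFB3 changed by 1.75 (adjusted p = 2.32e-06). In the paired fit of Day 270 alone LDHA changed by 0.99 and was higher in 6 of 6 animals, but was not called. Over the whole schedule LDHA was called on 5 days, PFKFB3 and PFKFB4 on 4, VEGFA and SLC2A3 on 3, HIF1A, SLC2A1, ADM and PDK1 on 2 and BNIP3 on 1. Summed neutrophil markers moved with the later block, from a median of 3067 CPM in controls to 6572 CPM at Day 120 and 7896 CPM at Day 210, and their part in it was not tested. Late levels of single animals reached far above the rest: LD animal B1503 had 69.1 and 83.6 CPM of VEGFA at Days 240 and 270, and HD animal B2502 had 204.4 and 127 CPM of SLC2A1. Both also had high erythroid markers then, 29314 and 48333 CPM in B1503 and 50514 and 90715 CPM in B2502.

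To compare times inside 1 library series, draws after Day 90 were set against Day 30 of the same 16 animals, with all samples in series C (16 at Day 30 and 46 later). Of the 10 members 6 rose and 1 fell, while 24.9% of all tested genes were called in either direction. The regulators of glycolysis moved most. PFKFB3 had 76.2, 158 and 220 CPM (lowest, median, highest) at Day 30 and 98.3, 510 and 1382 CPM later. All 16 animals were higher, and the change was 1.79 ± 0.16 (SE, adjusted p = 1.52e-07). PFKFB4 had 15.9, 60.3 and 124.1 CPM at Day 30 and 65.6, 157 and 436 CPM later (1.48 ± 0.23, adjusted p = 3.2e-05), again higher in 16 of 16 animals.

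The transporter SLC2A3 rose from 103.5, 143 and 228 CPM to 124.9, 325 and 685 CPM (1.23 ± 0.11, adjusted p = 1.52e-07, 16 of 16 animals). HIF1A rose from 61.2, 93.7 and 153 CPM to 73.1, 165 and 329 CPM (0.97 ± 0.11, adjusted p = 1.87e-06, 16 of 16). For both, the late median lay above the highest Day 30 value, although the ranges overlapped. VEGFA went from 4.58, 7.75 and 23.3 CPM to 5.37, 14.6 and 83.6 CPM (0.91 ± 0.18, adjusted p = 0.000406, 15 of 16) and LDHA from 99.7, 174 and 260 CPM to 103.9, 283 and 860 CPM (0.89 ± 0.13, adjusted p = 1.6e-05, 15 of 16). These 6 calls were kept in all 16 fits that left out 1 animal, under TMM scaling, DESeq2, no filter on low counts, without the block and without the unscheduled draws.

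SLC2A1 went the other way, from 15.8, 25.8 and 63.5 CPM at Day 30 to 8.40, 20.1 and 204.4 CPM later, and was lower in 13 of 16 animals (−0.62 ± 0.15, adjusted p = 0.00213). This call was lost under TMM scaling (−0.54), DESeq2 (−0.52), no filter (−0.52), without the block (−0.54, adjusted p = 0.0522), without the unscheduled draws (−0.56) and when B1504, B2504 or B2506 was left out, with the range over animals left out from −0.69 to −0.54. Day 30 itself lay above control for SLC2A1 by 0.50 (adjusted p = 0.00423). PDK1 (−0.24, adjusted p = 0.116), ADM (−0.30, adjusted p = 0.428) and BNIP3 (−0.23, adjusted p = 0.243) were not called. The median change was 0.90 over the 10 members and −0.18 over all tested genes. That shift was −0.10 under TMM scaling and −0.08 under DESeq2. The share of called genes that were higher was 42.1% with upper quartile scaling, 56.6% with TMM and 58.3% with DESeq2.

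The cell markers moved in the same samples. Neutrophil markers summed to a median of 3166 CPM (879.5 to 5698) at Day 30 and 6566 CPM (2591 to 16342) later, higher in 16 of 16 animals, and 11 of 12 of them were called higher. Monocyte markers summed to 1525 and 3084 CPM, also higher in 16 of 16, with 3 of 7 called higher and 1 lower. Erythroid markers went from 19958 to 8020 CPM (9 of 10 called lower), B cell markers from 784 to 245 CPM (7 of 7 lower) and T cell markers from 1453 to 978 CPM (5 of 7 lower). Genes that respond to glucocorticoids summed to 2040 and 2707 CPM, with 7 of 9 called higher. The part of these marker and glucocorticoid-responsive genes in the members' rise was not tested.

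**Figure D3:**
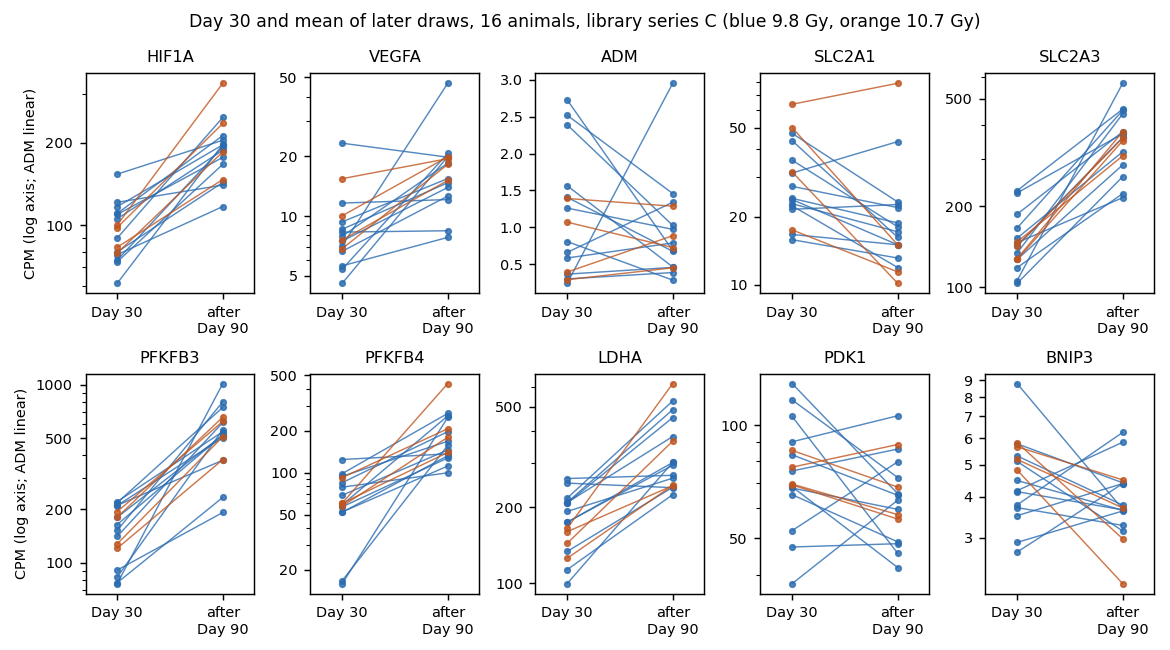
CPM of each member at Day 30 (left) and the mean CPM of the draws after Day 90 (right) in 16 animals of library series C, 1 line per animal, blue for LD and orange for HD, on logarithmic axes except for ADM. All 16 lines rise for PFKFB3, PFKFB4, SLC2A3 and HIF1A, whereas SLC2A1 falls in 13 animals.

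The effect of dose was tested as an interaction, HD minus LD in the change from control, on counts summed per animal. At Day 30 to 60 (12 LD and 12 HD animals with controls) 4 members differed between doses, all with the higher change in HD, against 3.93% of all genes called. PFKFB4 differed most. It had 21.3, 61.5 and 158 CPM (lowest, median, highest) in LD controls and 40.6, 49.6 and 108.1 CPM in HD controls. At Day 60 it had 16.4, 51.2 and 120 CPM in 12 LD samples and 72.3, 173 and 300 CPM in 9 HD samples. The Day 60 ranges overlapped only between 72.3 and 120 CPM, while the Day 30 medians were 63.7 and 74.3 CPM. The mean change over Day 30 to 60 was −0.27 ± 0.46 in LD and 0.96 ± 0.38 in HD animals (SD, n = 12 each), with 3 of 12 LD and 12 of 12 HD animals above their control, and the interaction was 1.24 ± 0.17 (SE, adjusted p = 9.41e-05, edgeR).

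PFKFB3 had 61.6, 155 and 338 CPM in LD and 131.04, 443 and 925 CPM in HD animals at Day 60. Its interaction was 0.97 ± 0.18 (adjusted p = 0.000871), from a mean change of −0.48 ± 0.44 in LD and 0.49 ± 0.46 in HD animals. SLC2A3 had 95.2, 154 and 415 CPM in LD and 130, 276 and 455 CPM in HD animals at Day 60 (interaction 0.74 ± 0.15, adjusted p = 0.00213), with 1 of 12 LD and 11 of 12 HD animals above control. VEGFA had 3.40, 7.16 and 13.2 CPM in LD and 4.98, 15.4 and 34.1 CPM in HD animals (0.68 ± 0.18, adjusted p = 0.0178). For all 3 the Day 60 ranges overlapped, and the HD median lay above the LD median that day. Their control medians in LD and HD were 189 and 155 CPM for PFKFB3, 209 and 156 CPM for SLC2A3 and 6.87 and 6.10 CPM for VEGFA. The median change of SLC2A3 over Day 30 to 60 was −0.44 in LD and 0.40 in HD animals. The others were not called: LDHA 0.42 (adjusted p = 0.0883), HIF1A 0.27 (0.321), ADM 0.55 (0.449), BNIP3 0.28 (0.298), PDK1 −0.23 (0.43) and SLC2A1 −0.03 (0.954). The median was 0.49 over the members and −0.05 over all genes.

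The calls rested on Day 60, for the members and for genes in general. Without that day no member and 7 of all tested genes were called, against 540 genes with it. The 4 members kept their direction, with PFKFB4 at 0.83 (adjusted p = 0.131), PFKFB3 at 0.59 (0.261), SLC2A3 at 0.51 (0.279) and VEGFA at 0.38 (0.594). With Day 60 alone, 6 members were called among 23.1% of all genes: PFKFB4 (2.03, adjusted p = 1.45e-05), PFKFB3 (1.70), SLC2A3 (1.25), VEGFA (1.23), LDHA (0.72) and HIF1A (0.71). Of the HD animals with a control that were sampled at Day 60, 4 of 9 had their last draw then and 7 of 9 by Day 90, against 0 of 12 LD animals. Dose and the nearness of the last draw cannot be told apart there. The 4 calls remained in animals with the same change of library series (12 LD, 8 HD) and without the B2007 Day 40 library. Neutrophil markers went from a median of 3302 CPM in controls to 2533 CPM at Day 30 to 60 in LD and from 2803 to 4273 CPM in HD animals, and 11 of 12 were called in the same test. Monocyte markers went from 1753 to 1667 CPM in LD and from 1496 to 2293 CPM in HD, and 4 of 9 glucocorticoid-responsive genes were called. Their part in the difference was not tested.

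**Figure D4:**
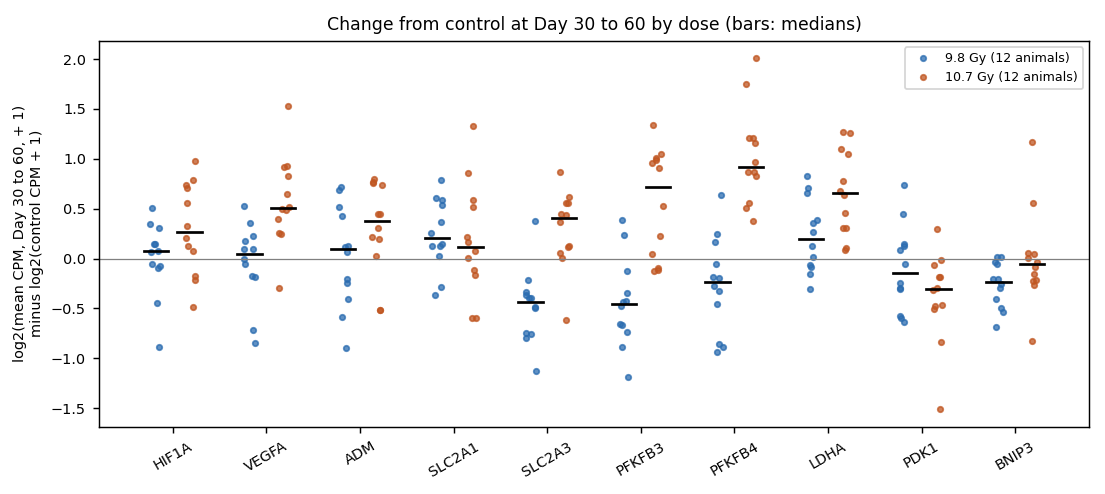
Change of each member from the animal's control at Day 30 to 60, as log2(mean CPM + 1) minus log2(control CPM + 1), for 12 LD (blue) and 12 HD (orange) animals, with bars at the medians. For PFKFB4 all 12 HD animals lie above 0, and 3 of 12 LD animals do.

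At Day 3 to 21 no member and 0% of genes were called for dose in edgeR, nor in DESeq2, with 66 genes past an unadjusted p. The PFKFB4 interaction was 0.19 ± 0.24 there and that of BNIP3, the only member with an unadjusted p under 0.05, was 0.26 ± 0.13 (adjusted p = 0.86). The same test for sex called no member and 0% of genes at Day 3 to 21 (20 genes by unadjusted p) and 0% at Day 30 to 60 (87 genes), and none in DESeq2. SLC2A1 had an interaction of male minus female at Day 30 to 60 of −0.37 ± 0.17 (adjusted p = 1).

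The last sampled draw of the 22 animals whose draws ended before Day 270 was compared with their preceding draw, to ask whether the members moved. This last draw need not lie close to death. It fell on Day 30 in B2008 and on Day 40 in B2005, B2007 and B2503. The paper places the first death later than these draws. The labels do not give the day of death. No member passed, with 0% of genes called. In this comparison 6 members had positive changes that did not pass: PFKFB3 by 0.62 (adjusted p = 0.196, 17 of 22 animals), PFKFB4 by 0.61 (0.2, 17 of 22), VEGFA by 0.52 (0.192, 16 of 22), SLC2A3 by 0.44 (0.18, 16 of 22), HIF1A by 0.33 (0.215, 16 of 22) and LDHA by 0.27 (0.214, 16 of 22). PFKFB3 had 54.8, 247 and 1025 CPM (lowest, median, highest) at the preceding and 126.2, 505 and 1013 CPM at the last draw, ranges that overlapped almost wholly. By unadjusted p 456 genes and 2 members passed. DESeq2 called 209 genes, with VEGFA (0.60, adjusted p = 0.0486) and PFKFB3 (0.70, adjusted p = 0.0493) among them, limma 4 genes, and edgeR with TMM scaling 0 genes. Both draws were in series C in 20 of the 22 animals.

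In the 8 animals with an unscheduled last draw 0% of genes and no member passed (145 genes by unadjusted p, 0 by DESeq2, TMM scaling and limma). Their PFKFB3 levels were high at both draws, with 264, 515 and 695 CPM at the preceding and 376, 517 and 794 CPM at the last draw. The median log2 change of PFKFB3 was 0.10 in these 8 animals and 0.76 in the 14 whose last draw fell on a scheduled day, that of HIF1A 0.15 and 0.66 and that of LDHA −0.06 and 0.59. The difference between these sets of animals was not tested, and the time from a scheduled last draw to death is not known here. Between the preceding and the last draw, neutrophil markers changed by a median log2 ratio of 0.44 and were higher in 16 of 22 animals, as monocyte markers (0.30) and glucocorticoid-responsive genes (0.37) were. B cell markers changed by −0.69.

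**Figure D5:**
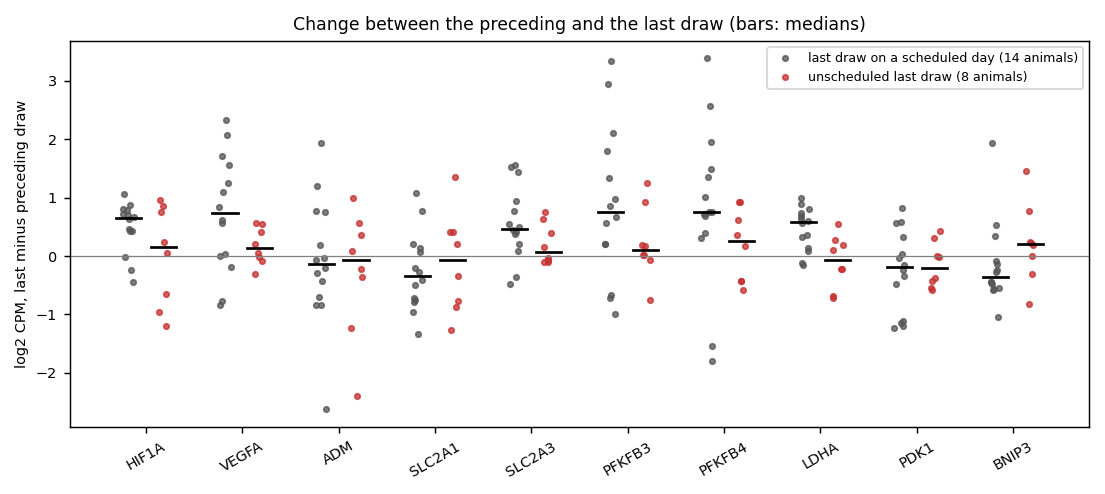
Log2 change in CPM from the preceding to the last draw for each member, in 14 animals whose last draw fell on a scheduled day (grey) and 8 with an unscheduled last draw (red), with bars at the medians. The median for PFKFB3 is 0.76 in the grey and 0.10 in the red set, and both sets spread across 0.

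The step before that gave calls. At the preceding draw, against the draw before it, PFKFB4 (0.88 ± 0.19, adjusted p = 0.00293, 17 of 22 animals), PFKFB3 (0.76 ± 0.21, adjusted p = 0.011, 18 of 22) and VEGFA (0.59 ± 0.16, adjusted p = 0.00976, 14 of 22) were higher, with 3.88% of all genes called. HIF1A (0.28), SLC2A3 (0.50) and PDK1 (−0.38) passed the adjusted p but not the 1.5-fold limit. Without the animal as a block no member was called, with changes of 0.75 for PFKFB4, 0.83 for PFKFB3 and 0.66 for VEGFA (adjusted p = 0.169 to 0.193), and with a filter of 10 counts VEGFA was under the 1.5-fold limit (0.58). In the 15 animals with both draws in series C, PFKFB4 (0.96, adjusted p = 0.0116) and SLC2A3 (0.59, adjusted p = 0.0288) were called, and PFKFB3 (0.72, adjusted p = 0.076) and VEGFA (0.45, adjusted p = 0.105) were not. That fit called 362 of the 13751 tested genes. In the comparison over 22 animals 11 of 12 neutrophil markers and 3 of 9 glucocorticoid-responsive genes were called higher, and their part was not tested.

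Among themselves the members fell into sets, described here by Pearson's r of log2 CPM over all samples after the mean of each animal was subtracted. These samples share animals, library series and cell composition. SLC2A3, PFKFB3 and PFKFB4 ran together (SLC2A3 with PFKFB3 0.92, PFKFB3 with PFKFB4 0.90, SLC2A3 with PFKFB4 0.87), and VEGFA and PDK1 ran against each other (−0.68). With the summed neutrophil markers r was 0.93 for PFKFB4, 0.89 for SLC2A3, 0.86 for PFKFB3, 0.72 for VEGFA, 0.68 for HIF1A and 0.49 for LDHA, and −0.68 for PDK1. PDK1 followed T cell markers (0.65), SLC2A1 erythroid markers (0.73) and ADM, weakly, platelet markers (0.33). HIF1A had its largest value with monocyte markers (0.763). SLC2A3 (0.82), PFKFB3 (0.771) and PFKFB4 (0.765) had values as large with these markers. LDHA had larger values with monocyte (0.60), B cell (−0.68) and T cell markers (−0.65) than with neutrophil markers. With the glucocorticoid-responsive genes r was 0.82 for PFKFB4, 0.78 for VEGFA, 0.75 for PFKFB3, 0.70 for SLC2A3, 0.62 for HIF1A and 0.53 for LDHA. It was 0.11 for ADM, −0.11 for SLC2A1, −0.35 for BNIP3 and −0.69 for PDK1.

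Of all tested genes, those most like each member by the same r were LIMK2 (0.94) and the neutrophil surface protein CD177 (0.94) for PFKFB3, PEAK3 (0.94) and ATP11A (0.94) for PFKFB4, and PYGL, the glycogen phosphorylase of liver and white cells (0.92), and PFKFB3 (0.92) for SLC2A3. For LDHA they were ARPC2 (0.89) and REEP5 (0.89), for PDK1 MGAT4A (0.86) and the T cell chromatin organiser SATB1 (0.85), and for HIF1A OSBPL11 (0.85) and FGD4 (0.84). For SLC2A1 they were P4HTM (0.82) and RBM38 (0.81), and for VEGFA ADCY4 (0.81) and COL9A2 (0.80). BNIP3 was most like the translation elongation factors EEF1A1 (0.55) and EEF1G (0.55), and ADM was like PLEKHO1 (0.47) and EGFL7 (0.46), the lowest values of the 10.

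In the rest of the pathway calls went in both directions. In the comparison of late draws with Day 30, 1441 of the 13751 tested genes were called higher and 1983 lower. There 1 of 8 tested HIF regulators was higher, EPAS1, the HIF-2 alpha subunit (0.80). Of 15 other HIF targets 3 were higher and 3 lower, of 19 glycolytic enzymes and lactate transporters 6 were higher and 2 lower, of 7 other genes of the PFKFB, PDK and SLC2A families 2 were higher and 1 lower, and of 6 receptors for VEGF and adrenomedullin 1 was higher and 1 lower. The largest rises were those of HK3, a hexokinase of myeloid cells (1.73, adjusted p = 1.52e-07), PFKFB2 (1.57, adjusted p = 0.000742) and HK2, a hexokinase of the HIF response (1.16, adjusted p = 1.5e-05). The largest falls were those of RAMP2, a part of the adrenomedullin receptor (−1.28, adjusted p = 0.00144), ANGPTL4, an inhibitor of lipoprotein lipase (−0.95, adjusted p = 0.0121), and BNIP3L, which clears mitochondria from maturing red cells (−0.86, adjusted p = 0.0113).

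In the dose interaction at Day 30 to 60, 3.93% of all tested genes were called. There 3 of 19 glycolytic genes were higher in HD: HK3 (1.33, adjusted p = 9.41e-05), the lactate exporter SLC16A3 (0.79, adjusted p = 0.000611) and ALDOA, an aldolase (0.59, adjusted p = 0.0159). None of the other pathway lists had a call. ALDOA was under the 1.5-fold limit with a filter of 10 counts (0.58) and without the B2007 library (0.58), and without Day 60 SLC16A3 (0.50, adjusted p = 0.208) and ALDOA were not called. At the preceding draw HK3 (0.67) and SLC16A3 (0.73) were higher and ANGPTL4 (−0.71) was lower. Against control, the genes called higher on most of the 15 days were BNIP3L (10 days), the lactate transporter SLC16A1 (9) and HK3 (9), and those called lower on most were the enolase ENO2 (6), ANGPTL4 (5) and the lactate dehydrogenase subunit LDHB (4). LDHB and LDHA thus were called in opposite directions.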

How the data were processed

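Whole blood RNA of 28 macaques was sequenced before and after irradiation. The authors trimmed reads with cutadapt 2.10, aligned them to Mmul_10 with STAR 2.7.6a and assigned them to RefSeq genes by Subread 2.0.1, and they deposited whole counts per gene. Whether counting used strand is not given in the sources used here. A second deposited table holds log2 values scaled by the authors, used here only for limma.

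Groups, days and animals were taken from the labels. A gene was tested if 80% of samples or more held 3 counts or more of it (13751 of 21070). The test was edgeR's quasi-likelihood one (version 4.0.16, R 4.3.3), scaled by the upper quartile, blocked by animal and adjusted after Benjamini-Hochberg over all tested genes. The animal is the pairing of all comparisons, since same-named samples come from the same animal. A call needed a p no higher than 0.05 and a change of 1.5-fold or more, the limits of the study, applied here to the adjusted p. For dose, sex and late draws, counts were summed per animal. Levels are CPM on 1 upper quartile scale over all samples, whereas fold changes use the scaling within each comparison. For single days against control, the control levels given cover all 24 controls, and not only the animals compared. TMM scaling, DESeq2 1.42.0, limma 3.58.1 on the deposited log2 values, other filters, no block and animals left out were tried as alternatives. The procedure was tested on simulated data. No 2 libraries held identical values. Figures were drawn with matplotlib 3.10.9.

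The members and the lists of pathway genes and cell markers were chosen with earlier results of these data known. Named were all 10 members, per comparison up to 3 pathway genes higher and 3 lower with the largest called change (for the 15 days, those called on most days), and the 2 genes most like each member. HIF3A, CA12, EDN1, EPO, P4HA2, VLDLR, AK4, PFKFB1, SLC2A4, KDR and RAMP3 had too few counts to be tested, and PLIN2, SLC2A14, FCN1 and PF4 were not analysed here. Depth was 2840219 to 23638161 counts per sample, and limits for a count of 0 cover counting error only. The windows before the starts of PFKFB3 and SLC2A3 are not reported here.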

Additional observations from a re-analysis of the deposited data

Results flagged for a closer look

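Single values far from the rest of their group were looked for in 60 sets of 1 member in 1 dose group and day with 4 to 10 samples, and 3 were found, about what chance gives (1 set in 20). SLC2A1 at Day 240 had 60.2 CPM in LD animal B1503, against 24.4 CPM in the next LD animal, and the erythroid markers of that library summed to 29314 CPM. BNIP3 at Day 210 had 1.71 CPM in LD animal B1004, with the next value at 3.96 CPM. PFKFB4 at Day 180 had 65.6 CPM in LD animal B1003, with the next value at 120 CPM.

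The other results to look at again are the 4 members whose change from control at Day 30 to 60 differed between doses in the interaction test, with HD above LD by 1.24 for PFKFB4, 0.97 for PFKFB3, 0.74 for SLC2A3 and 0.68 for VEGFA on the log2 scale. Without Day 60 none of the 4 was called, and 7 of all tested genes were. By that day several HD animals had reached or neared their last draw.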

How the results depend on the processing

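Over the 15 days the 28 member calls were 28 under TMM scaling, 30 without a filter, 26 with a filter of 10 counts (which leaves ADM untested), 34 by DESeq2, 24 by limma and 38 with unadjusted p. They were 61 by adjusted p alone, 47 in 1 fit over all samples and 49 in that fit with library series as a term. With control and draw in the same series there were 10 calls on the 7 days that could be fitted, against 5 on those days with all animals, and all 5 were kept. Days 30 and 40 then hold 4 animals each. Without the replicate block, the pairing by animal, there were 26 calls over the 15 days and 0 in place of 3 at the preceding draw, and in late draws SLC2A1 alone lost its call. At the preceding draw 6 members passed by adjusted p alone. At the last draw 2 passed by DESeq2 and 2 by unadjusted p. For dose at Day 30 to 60 there were 0 calls without Day 60, an alternative chosen after seeing the data, as were those on B2007, on unscheduled draws, on Day 60 alone and on series C for the preceding draw. Leaving out 1 animal gave 6 to 7 calls for late draws against Day 30 and 0 at the last draw and at the unscheduled last draw. No direction of a called member turned under any of these alternatives. limma was not run on comparisons of summed counts.

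Depth limits ADM most, with at most 63 counts. Later days hold few animals, which are the survivors, and on days from 120 on no animal's draw shared a library series with its control. Summed cell markers and glucocorticoid-responsive genes moved with several members, and their parts were not tested, and which animals received dexamethasone is not given. No sham-irradiated animals were analysed here, so time and irradiation cannot be told apart.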
